A study of Homo sapiens with 9 samples.

Results

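Peaks of CDK9 and of DDX21 were examined at 10 spliceosomal small nuclear RNA (snRNA) genes that lie outside the large snRNA repeats: RNU4-1, RNU4-2, RNU5A-1, RNU5B-1, RNU5D-1, RNU5E-1, RNU5F-1, RNU2-2P, RNU11 and RNU12. A deposited peak belonged to them when any part of it lay within 3 kb of the position of a gene in hg19, a rule that uses no measured value. This gave 71 of the 27469 peaks in 6 lists. The cells were A375, a human malignant melanoma line, exposed for 24 h to A771726 with added nucleotides, to A771726 alone, or to DMSO, and the dose given for A771726 is 25 µM. A771726, the active metabolite of leflunomide, blocks the pyrimidine synthesis enzyme dihydroorotate dehydrogenase. The sources used here do not name the added nucleotides or their dose. Chromatin was immunoprecipitated with antibodies to CDK9 or DDX21, with 1 library for each combination and thus no replicates. The series also describes 3 inputs, which were not analysed here.

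The spliceosome removes introns with the help of small RNAs held in protein particles. U4 keeps U6 inactive until the spliceosome is assembled, U5 holds the ends of the exons in place, and U2 pairs with the branch point of the intron. U11 and U12 do the work of U1 and U2 on the rare minor class of introns. These RNAs are made by RNA polymerase II from short promoters without a TATA box, and Integrator, not the polyadenylation machinery, cuts their 3′ ends. CDK9, the catalytic subunit of P-TEFb, phosphorylates the polymerase and is known to act in 3′ end formation of snRNAs. DDX21 is a nucleolar DEAD-box RNA helicase that also binds chromatin at polymerase II genes.

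The positions of the genes are given to 100 bp, and no hg19 gene annotation was at hand, so the genes were named from these positions. The strongest CDK9 summit of each gene lay within 190 bp of its position in DMSO. All 10 names were found in the RefSeq gene table of GRCh38.p14, which calls RNU2-2P by its present symbol RNU2-2 and lists it as an snRNA. RNU4-1 and RNU4-2 are 1400 bp apart, so each of their peaks lies within 3 kb of both, and peaks are described below under the nearer gene. U4, U5 and U2 genes have near-identical copies and pseudogenes elsewhere in the genome. The sources used here do not say how reads matching several copies were handled, and their part in the signal was not tested. RNU2-2P stood apart in its local background, which was 39.5, 11.6 and 43.7 fragments for CDK9 with A771726 plus nucleotides, with A771726 and in DMSO, against 4.85 to 7.51, 1.20 to 3.32 and 4.85 to 11.8 fragments at the other genes. Counts are therefore also given without it.

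**Figure D1:**
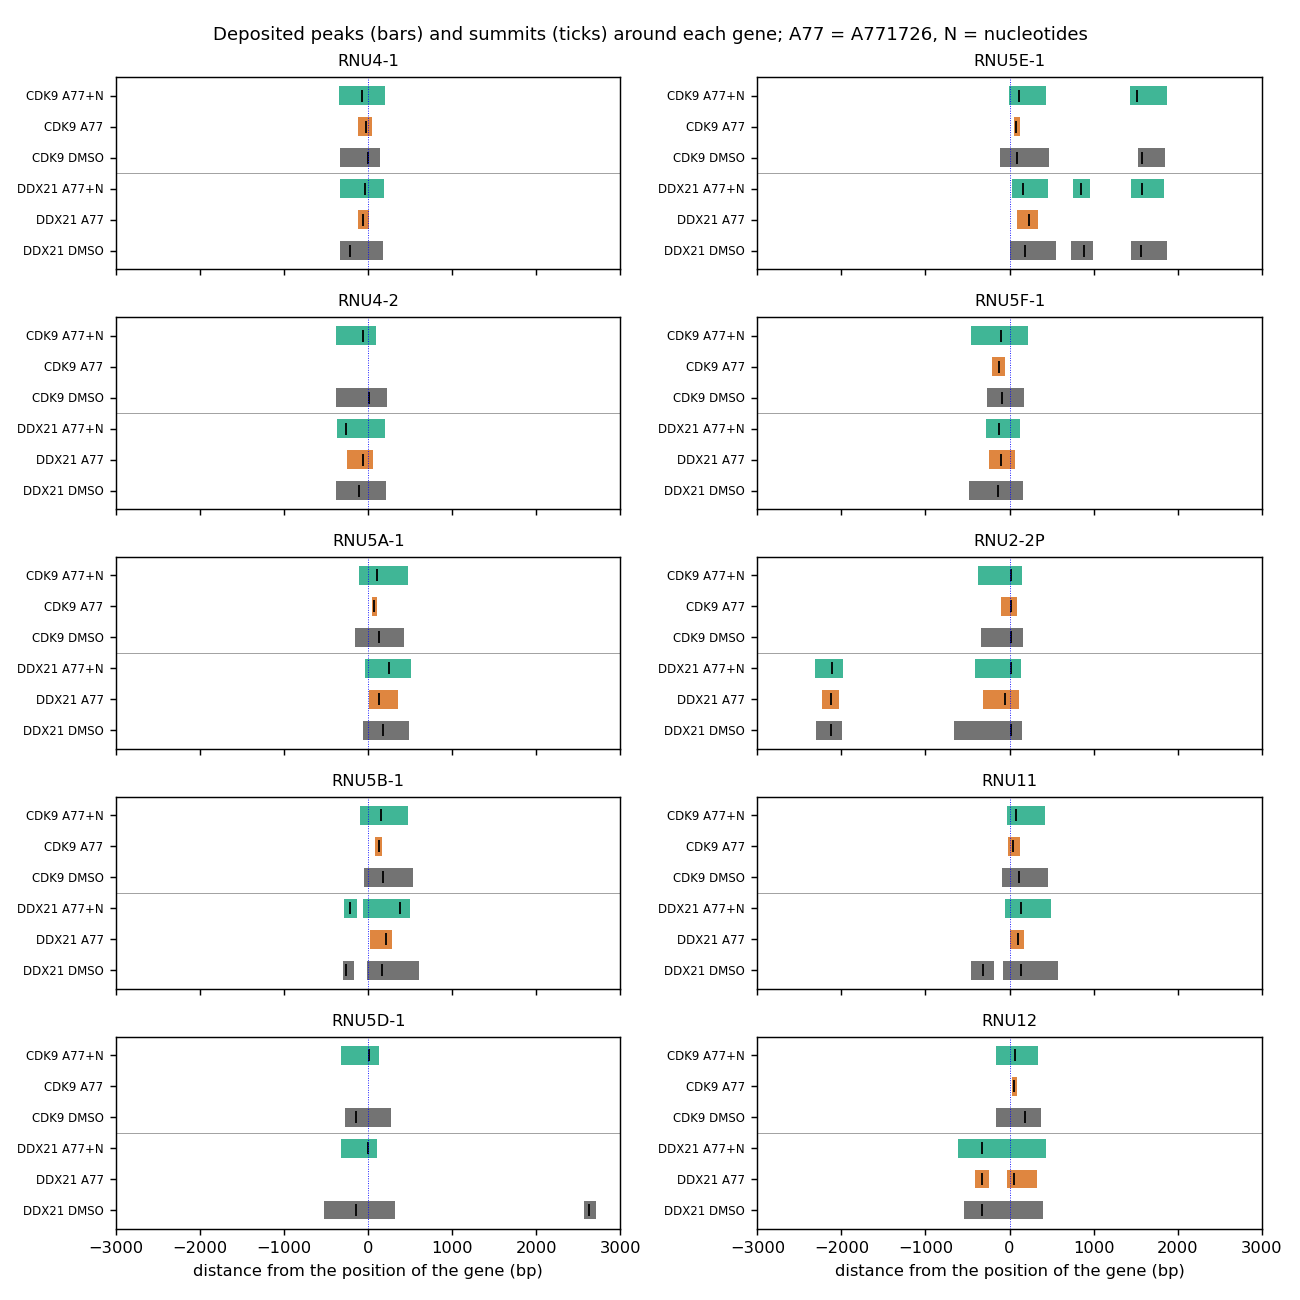
Deposited peaks (bars) and their summits (ticks) in the 6 lists, by distance in bp from the position of each gene, with CDK9 in the upper and DDX21 in the lower rows of a panel and A771726 plus nucleotides above A771726 and DMSO. CDK9 bars cover all 10 positions with A771726 plus nucleotides and in DMSO, and are short, 54 to 183 bp, or missing with A771726. The shortest peak of the whole CDK9 list was 50 bp with A771726 and 128 bp in DMSO.

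Peak lists differed in length, and fold enrichment and −log10 q describe a peak only within its own list. The CDK9 lists held 3099 peaks with A771726 plus nucleotides, 290 with A771726 and 3462 in DMSO, and the DDX21 lists held 7922, 4375 and 8321. The depth of the libraries is unknown. A summit height is used below to set libraries side by side: it is the number of fragments over the summit, recovered from the deposited values, divided by the lowest local background of the same list. Its intervals are 95% intervals for counting error only, which does not include the error between cultures. With 1 library per group no test of a treatment was possible. A lower signal can mean fewer cells with the protein at the site, less of it per cell, or a technical difference between single libraries. These cannot be told apart.

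CDK9 had a peak at all 10 snRNA genes with A771726 plus nucleotides and in DMSO, and at 8 of 10 with A771726. The genes without a CDK9 peak of their own with A771726 were RNU4-2 and RNU5D-1, although the RNU4-1 peak lies within 3 kb of RNU4-2 as well. Of 11 CDK9 peaks at these genes in DMSO, 8 overlapped an A771726 peak, a share of 72.7% (exact binomial 95% interval 39.0 to 94.0), while 5.40% of all 3462 DMSO peaks did. Without RNU2-2P the count was 7 of 10. In the list with nucleotides 8 of 11 had an A771726 peak, against 5.74% of that whole list. All 11 DMSO peaks had a peak with nucleotides, against 45.2% of the DMSO list. The genes made up 2.76% (1.20 to 5.36) of the CDK9 peaks with A771726, 0.355% (0.177 to 0.634) of those with nucleotides and 0.318% (0.159 to 0.568) of those in DMSO.

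By −log10 q, the CDK9 peaks at these genes stood high in the lists with nucleotides and in DMSO, but not in the list with A771726. A median of 3.55% of the list was stronger than a peak at the snRNA genes with nucleotides, 57.9% with A771726 and 3.15% in DMSO. Ranked by fold enrichment, these medians were 8.68%, 62.9% and 8.98%. In DMSO RNU11 was the strongest of them at rank 39. Among the 110 DMSO peaks with a −log10 q of at least 19.6, the median of the members, 54.5% (44.8 to 64.1) had an A771726 peak, and 5 of the 6 members in that range did. With lists of equal length, the top 290 peaks each, 6 of 8 members and 32.4% of all DMSO peaks had one. With −log10 q of at least 5 in both lists, the count was 3 of 10 members, against 4.57% of all peaks, since 5 of the 8 A771726 peaks at the genes lay below that level. The genes kept there were RNU5F-1, RNU2-2P and RNU11.

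**Figure D2:**
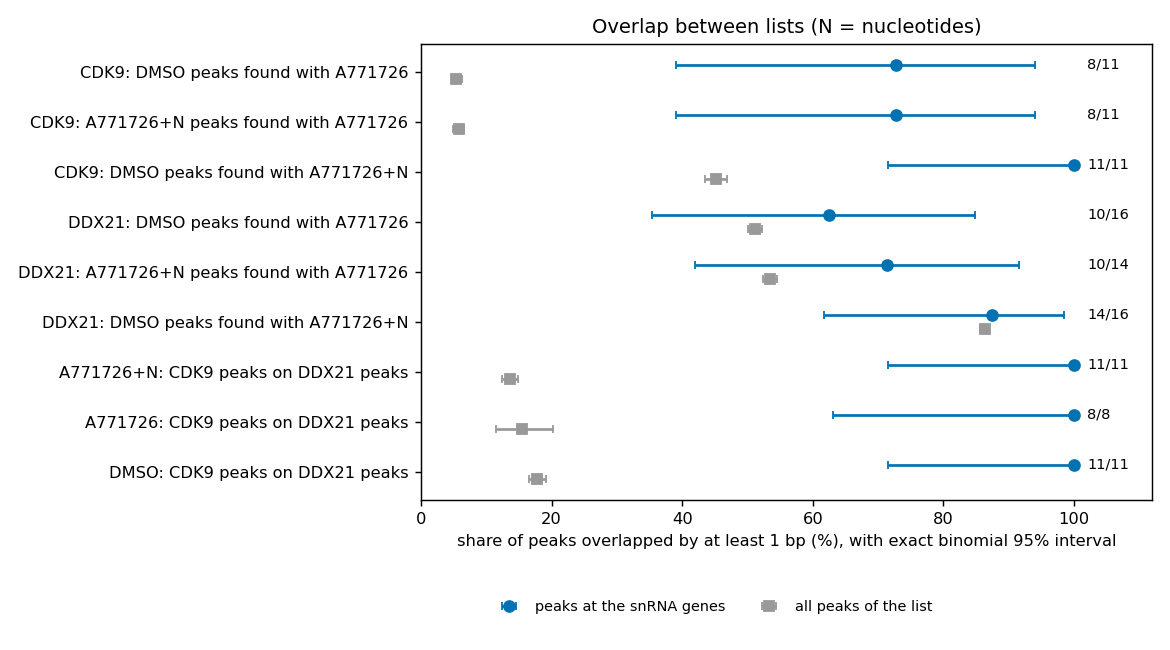
Share of peaks, in percent, that overlap a peak of another list by at least 1 bp, for peaks at the snRNA genes (circles, counts at the right) and for whole lists (squares), with exact binomial 95% intervals. CDK9 circles lie far to the right of the squares, as in DMSO peaks found with A771726 (72.7% and 5.40%), while the DDX21 circles, which are all between treatments, have intervals that include the squares.

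At the U4 genes, whose RNA pairs with U6 until the spliceosome is activated, a CDK9 peak was called with A771726 at RNU4-1 only. The DMSO peak of RNU4-1 spanned bases 120730663 to 120731143 of chromosome 12 in hg19, the build of all peak positions here. CDK9 heights at RNU4-1 were 37.0 with A771726 plus nucleotides, 34.6 with A771726 and 34.2 in DMSO. Their counting intervals overlap. With A771726 the RNU4-1 peak was weak, with 18 fragments against 40 in DMSO, a −log10 q of 3.29 and rank 205 of 290. RNU4-2, with its DMSO peak from 120729219 to 120729818, had heights of 34.6 with nucleotides and 41.0 in DMSO, and no peak with A771726. In DMSO the RNU4-2 peak was the stronger of the pair, at rank 87 against rank 648 for RNU4-1.

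At the U5 genes, which encode variants of the snRNA that aligns the exons, 4 of 5 had a CDK9 peak with A771726. RNU5A-1, on chromosome 15 from 65588243 to 65588829, had heights of 31.4 with nucleotides, 25.0 with A771726 and 38.4 in DMSO. RNU5B-1, on the same chromosome from 65596949 to 65597528, had 33.8, 21.1 and 38.4 in the same order of treatments. Both were lowest with A771726, where the summits held only 13 and 11 fragments. RNU5E-1, on chromosome 1 from 11968089 to 11968667, had heights of 40.2 with nucleotides, 30.7 with A771726 and 44.4 in DMSO. RNU5F-1, from 45187227 to 45187675 on that chromosome, had 35.4, 38.4 and 35.9, and thus no lower height with A771726. Its summits held 44, 20 and 42 fragments in that order, so this depends on the lowest backgrounds used as divisors. RNU5D-1, from 45196424 to 45196965, had heights of 27.3 with nucleotides and 31.6 in DMSO and no peak with A771726 for either antibody, although it lies only 9200 bp from RNU5F-1, which had both.

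RNU2-2P carried the highest CDK9 summit of the 10 genes under every treatment. It encodes a U2 snRNA, and its DMSO peak lay on chromosome 11 from 62608864 to 62609354. Heights were 99.7 with A771726 plus nucleotides, 132 with A771726 and 109 in DMSO, from 124, 69 and 128 fragments. Its fold enrichment over that local background was 3.09 with nucleotides, 5.55 with A771726 and 2.89 in DMSO, and the values with nucleotides and in DMSO were the lowest of the genes' CDK9 peaks in those lists. By −log10 q it held rank 82 with nucleotides, 6 with A771726 and 110 in DMSO, in lists of unequal length. Its high local background, given above, belongs to the same stretch, and its part in these heights was not tested.

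Both minor spliceosome genes had CDK9 under the 3 treatments. RNU11, on chromosome 1 from 28975010 to 28975562, had heights of 44.2 with nucleotides, 34.6 with A771726 and 47.0 in DMSO. RNU12, on chromosome 22 from 43011143 to 43011669, had 37.0, 23.0 and 41.9. Each was lowest with A771726, and its counting interval there overlapped that of DMSO. At RNU12 the A771726 peak was only 54 bp wide and ranked 255 of 290.

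CDK9 heights at the matched sites were lower with A771726 than in DMSO at 5 of 8, with a median ratio of 0.714 (A771726 over DMSO) and a range of 0.550 to 1.21. No interval of these 8 ratios excluded 1, and the share of all matched peaks whose interval did was not computed. The 5 of 8 and these intervals depend on the lowest backgrounds used as divisors, which were taken as exact. Undivided fragment counts of A771726 over DMSO had ratios from 0.244 at RNU5B-1 to 0.539 at RNU2-2P. Over all 187 matched CDK9 peaks the median ratio was 0.943, and 55.6% had a ratio below 1. A height at least 1.5-fold lower with A771726 was found at RNU5A-1, RNU5B-1 and RNU12, which is 3 of 8 sites, while 11.8% of all matched peaks had one. With nucleotides over A771726 the median ratio at the genes was 1.27, and 2 of 8 sites, RNU5B-1 and RNU12, were at least 1.5-fold higher, against 15.3% of the 222 matched peaks. With nucleotides over DMSO the median was 0.905, and 0 of 11 sites were 1.5-fold lower, against 3.90% of all matched peaks. Sites without a peak with A771726 have no ratio, so the matched sites are those where enough signal was left. The shortest CDK9 peak was 50 bp with A771726 and 128 bp in DMSO, and the lowest background of the A771726 list rests on 1 peak, so CDK9 heights with A771726 are the least certain. Undivided fragment counts gave a median ratio of 0.317 for A771726 over DMSO and of 3.03 for nucleotides over A771726.

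CDK9 peaks at the snRNA genes were wide with nucleotides and in DMSO and short with A771726. Their median widths were 508 bp with A771726 plus nucleotides, 112 bp with A771726 and 542 bp in DMSO, against 186, 96 and 186 bp for the whole lists. The shortest peak of each whole list was 129, 50 and 128 bp in the same order. Widths with A771726 are therefore not on the same footing as the others, and the cause was not tested. At matched sites the summit with A771726 lay a median of 48 bp from that in DMSO. The widest shift was 141 bp, at RNU12.

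**Figure D3:**
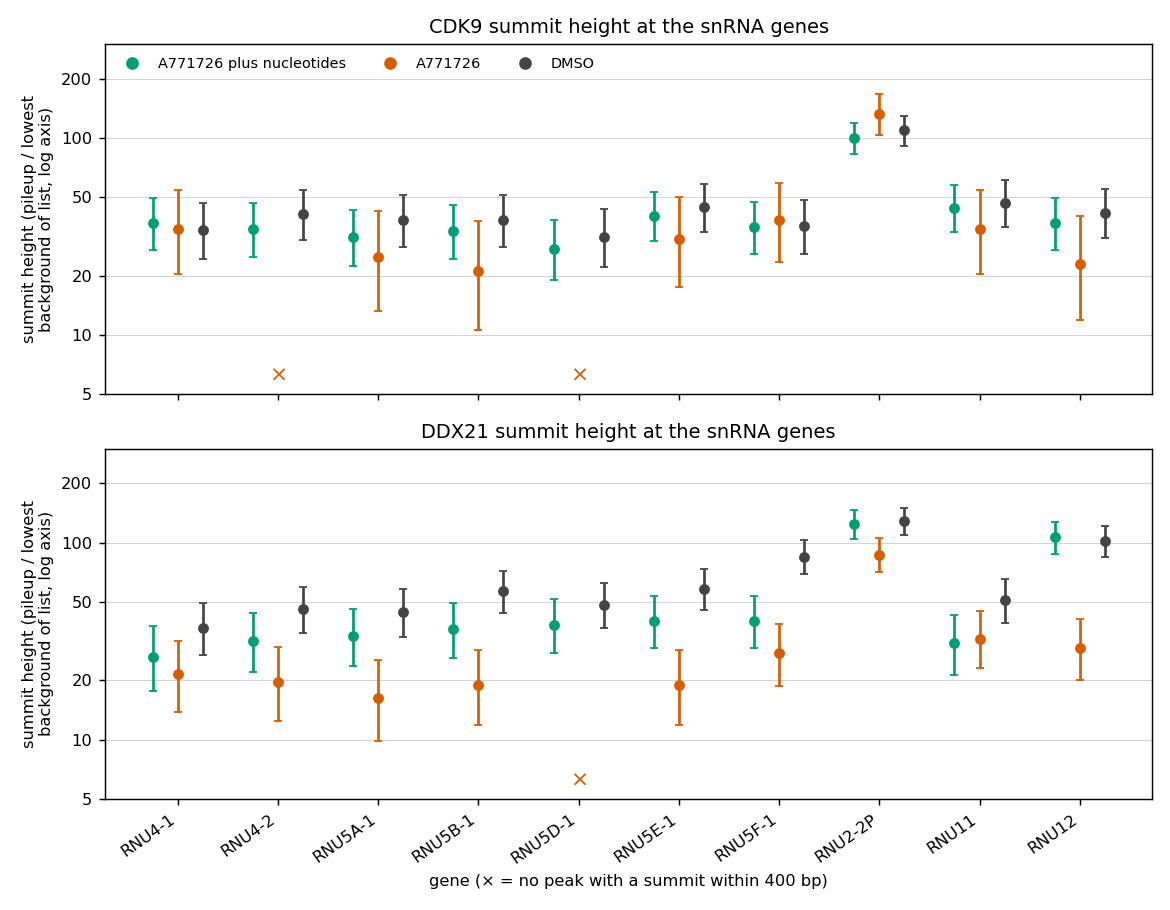
Summit height (fragments over the summit divided by the lowest background of the list, log axis) of CDK9 and DDX21 at each gene with A771726 plus nucleotides, with A771726 and in DMSO, taking the strongest peak with its summit within 400 bp of the position. Bars are 95% Poisson intervals for counting error, and crosses mark no such peak. DDX21 is lower with A771726 than in DMSO at each of the 9 genes with a peak, with overlapping intervals at RNU4-1 and RNU11. CDK9 intervals of these treatments overlap at each gene with a peak in both. Undivided fragment counts gave median ratios of A771726 over DMSO of 0.317 for CDK9 and 0.381 for DDX21.

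DDX21 was also found at all 10 genes with A771726 plus nucleotides and in DMSO, and at 9 with A771726, where RNU5D-1 had none. By −log10 q, a median of 54.8% of the DMSO list was stronger than a peak at the genes, with 24.9% stronger at RNU12 and 91.4% at the side peak near RNU11 as the extremes. Of the 16 DMSO peaks at the genes, 10 had an A771726 peak, or 62.5% (35.4 to 84.8), close to the 51.1% of the whole DMSO list. Among the 4570 DDX21 DMSO peaks at least as strong as the median member, 86.3% had an A771726 peak, and so did 7 of 8 members. In the list with nucleotides 10 of 14 had an A771726 peak, against 53.5% of that list. A peak with nucleotides was found for 14 of the 16 DMSO peaks and for 86.3% of the whole DMSO list. Without RNU2-2P these 3 counts were 8 of 14 for DMSO peaks found with A771726, 8 of 12 for peaks with nucleotides found with A771726, and 12 of 14 for DMSO peaks found with nucleotides. The 2 DMSO peaks with no peak with nucleotides were side peaks near RNU11 and RNU5D-1.

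At the U4 genes DDX21 heights were 26.4 with A771726 plus nucleotides, 21.5 with A771726 and 37.0 in DMSO at RNU4-1, and 31.8, 19.7 and 46.1 at RNU4-2. RNU4-2 thus had DDX21 with A771726 where it had no CDK9 peak. At the U5 genes, RNU5A-1 had 33.6 with nucleotides, 16.3 with A771726 and 44.4 in DMSO, RNU5B-1 had 36.3, 18.9 and 56.8, and RNU5E-1 had 40.0, 18.9 and 58.4. RNU5D-1 had 38.2 with nucleotides and 48.5 in DMSO. All 6 genes were highest in DMSO and lowest, or without a peak, with A771726. Median DDX21 peak widths at the genes were 475.5 bp with nucleotides, 265 bp with A771726 and 543 bp in DMSO, against 334, 241 and 307 bp for the whole lists.

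DDX21 heights with A771726 were below those in DMSO at 10 of 10 matched sites, and the interval of each ratio lay under 1. Intervals were not computed for the other matched peaks, so this count of intervals has no share of the list beside it. The median ratio of A771726 over DMSO was 0.398, and the median over all 4253 matched DDX21 peaks was 0.418, with 99.0% of them below 1. A height at least 1.5-fold lower was found at 9 of 10 sites and at 91.3% of matched peaks, so the share at the genes was near that of the list. RNU12, at its highest summit, had 106 with nucleotides, 29.2 with A771726 and 102 in DMSO, with a ratio of 0.286 (0.190 to 0.421) for A771726 over DMSO. In DMSO that summit lay 328 bp to the low-coordinate side of the gene's position. A second A771726 peak, with its summit 58 bp to the other side, had a height of 23.2. RNU5F-1 had 40.0, 27.5 and 84.7. RNU11, with 30.9, 32.6 and 51.0, and the gene site of RNU2-2P, with 124, 86.7 and 128, had the mildest differences between A771726 and DMSO, with ratios of 0.640 and 0.676.

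With nucleotides, DDX21 heights were below those in DMSO at 11 of 14 sites at the snRNA genes, against 39.2% of all matched peaks. These directions depend on the lowest backgrounds used as divisors. Undivided fragment counts gave a median ratio of 0.665 at the genes. The median ratio of A771726 plus nucleotides over DMSO was 0.734 over 14 sites at the genes and 1.04 over all 7180 matched peaks. Of these sites, 7 lay below the lowest 5% of matched peaks and 13 below their median. These positions within the list do not depend on how libraries are scaled. A height at least 1.5-fold lower was found at 3 of 14 sites, RNU5F-1, RNU5B-1 and RNU11, and at 2.01% of matched peaks.

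By gene, the DDX21 ratio of nucleotides over DMSO was lowest at RNU5F-1, at 0.472 (0.324 to 0.678). It was 0.606 (0.387 to 0.935) at RNU11 and 0.640 (0.423 to 0.959) at RNU5B-1. For these 3 genes the counting interval excluded 1, and the share of all matched peaks with such an interval was not computed. It was 0.685 at RNU5E-1, 0.690 at RNU4-2, 0.712 at RNU4-1, 0.757 at RNU5A-1 and 0.786 at RNU5D-1, each with an interval that included 1. RNU2-2P at the gene, with 0.970, and RNU12 at its highest summit, with 1.04, were close to the list. DMSO peaks of like strength, those with a −log10 q between the quartiles of the members, had a median ratio of 0.996, and 11 of 14 sites lay below it. Against those peaks 3 sites, not 7, lay below the lowest 5%, and 7 lay below the lowest 10%. DDX21 peaks that lay on a CDK9 peak in DMSO had a median of 1.02. Against A771726 alone, the DDX21 heights with nucleotides were higher at 10 of 11 sites, with a median ratio of 1.92 and RNU11 as the exception at 0.947. Over all 4342 matched peaks the median ratio was 2.49, and 0.184% had a ratio below 1. At least 1.5-fold higher were 7 of 11 sites, and 94.0% of all matched peaks. The 37 matched DDX21 peaks that lay on a CDK9 peak with A771726 had a median of 1.46, and 3 of 11 sites lay below it. These 37 peaks include 8 of the 11 sites, which are thus partly compared with themselves. The 11 sites count the RNU12 peak with nucleotides for each of the 2 A771726 peaks it overlaps, with ratios of 3.64 and 4.59, and for the second the summits lay 388 bp apart. Since the 2 ratios share the library with nucleotides, they are not independent of each other.

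**Figure D4:**
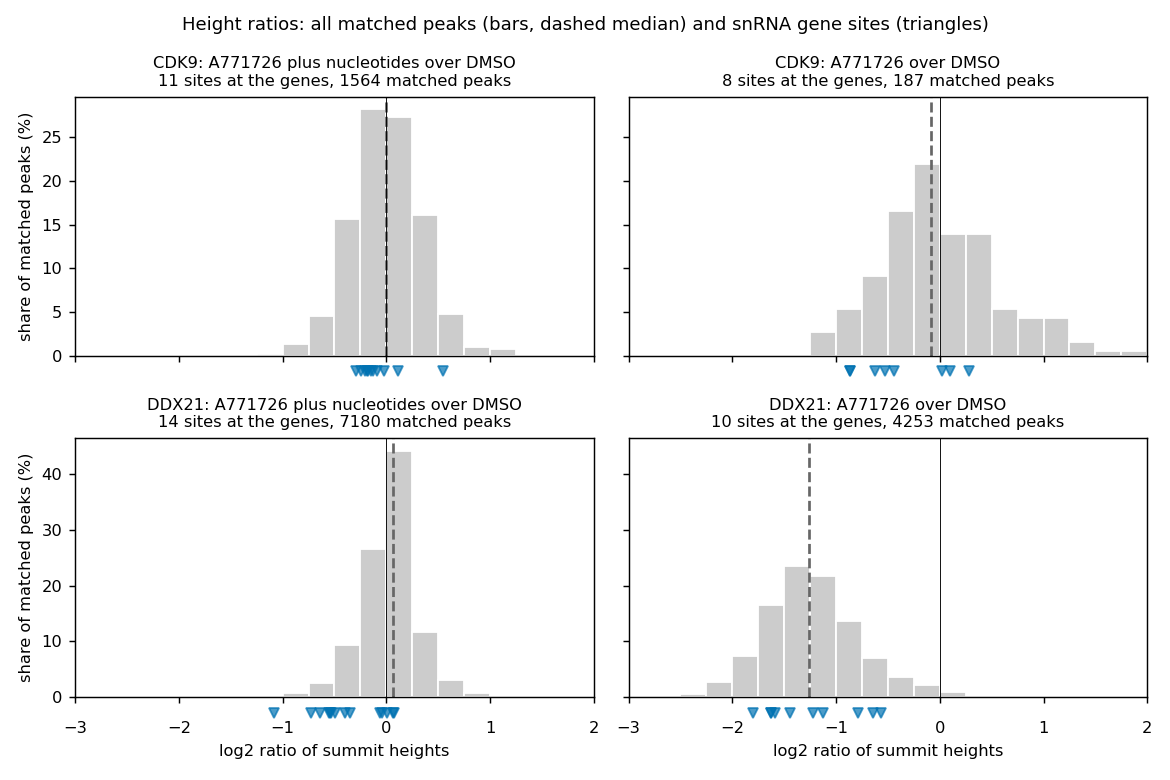
Log2 ratio of summit heights for all matched peaks (bars, share of peaks in percent, with a dashed median) and for the sites at the snRNA genes (triangles), for CDK9 above and DDX21 below, with A771726 plus nucleotides over DMSO at the left and A771726 over DMSO at the right. In the DDX21 panel with nucleotides the triangles reach to the left of the bulk of the bars, with a median ratio of 0.734 against 1.04.

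CDK9 and DDX21 peaks overlapped at the snRNA genes. Every CDK9 peak there overlapped a DDX21 peak of the same treatment, namely 11 of 11 with A771726 plus nucleotides, 8 of 8 with A771726 and 11 of 11 in DMSO, while 13.6%, 15.5% and 17.8% of the whole CDK9 lists did. Without RNU2-2P the counts were 10 of 10, 7 of 7 and 10 of 10. The whole lists were not matched to these peaks for strength or width. In DMSO the median CDK9 peak was 542 bp wide at the genes and 186 bp in the whole list. From the side of DDX21, 11 of 14, 8 of 11 and 11 of 16 peaks lay on a CDK9 peak, against 5.30%, 0.960% and 7.38% of the DDX21 lists. The summits of both proteins were a median of 58, 59 and 55 bp apart in the same order of treatments. The largest distance in DMSO, 518 bp, was at RNU12, where the DDX21 summit lay 328 bp to the low-coordinate side of the gene's position and the CDK9 summit 190 bp to the other side.

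At RNU12 and RNU2-2P the DDX21 summit that was strongest by −log10 q lay away from the CDK9 summit under each treatment. With A771726 DDX21 had 2 peaks at RNU12, a stronger one from 43010894 to 43011054, which held no CDK9, and another from 43011271 to 43011628, which did. The RefSeq table has POLDIP3, which encodes a protein that binds mRNA and polymerase delta, next to RNU12. Near RNU2-2P a separate DDX21 peak, from 62606898 to 62607211 in DMSO, had heights of 130 with nucleotides, 56.7 with A771726 and 123 in DMSO. It had no CDK9 peak under any treatment. WDR74, a gene of ribosome assembly, neighbours RNU2-2P in that table.

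Other side peaks were weaker. At RNU5E-1 a CDK9 peak from 11969734 to 11970053 in DMSO had heights of 33.8 with nucleotides and 23.1 in DMSO, with a ratio of 1.46 (0.882 to 2.47), and none was found with A771726. DDX21 was found at that site too, with 23.6 and 34.5, and the pseudogene RNU5E-4P is a neighbour of RNU5E-1. A DDX21 peak between these sites, with 35.4 with nucleotides and 35.4 in DMSO, had no CDK9. At the site that held both proteins the DDX21 ratio of nucleotides over DMSO was 0.684 (0.403 to 1.14), and neither interval excluded 1.

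None of the sequences used here is listed as a promoter of the 10 snRNA genes. Whether the stretches listed for their neighbours also take in bases just before an snRNA gene was not tested. The table of RefSeq promoters, from 250 bases before to 50 after each start, holds 7 entries for neighbours of the snRNA genes. The 3 printed were chosen after the sequences were read, because each holds one of the motifs searched and shows what lies beside a U4 gene, RNU12 and RNU2-2P. The first is the promoter of SIRT4, a mitochondrial sirtuin gene that lies beside both U4 genes, on chr12:120291939-120292238, plus strand. The others are those of POLDIP3, on chr22:42614834-42615133, minus strand, and WDR74, on chr11:62839541-62839840, minus strand. These coordinates are of GRCh38.p14, and no peak was placed on them. Capitals mark the octamer ATTTGCAT, bound by Oct-1 in snRNA promoters, read on either strand, in SIRT4, and CCGGAAGT, a core bound by ETS factors, on either strand in POLDIP3 and WDR74. Of the entries not printed, LOC124905127 beside RNU12 overlaps the POLDIP3 stretch and holds the same CCGGAAGT match. The other WDR74 entry and both entries of LOC105378690 beside RNU5F-1 hold none of the motifs.
SIRT4: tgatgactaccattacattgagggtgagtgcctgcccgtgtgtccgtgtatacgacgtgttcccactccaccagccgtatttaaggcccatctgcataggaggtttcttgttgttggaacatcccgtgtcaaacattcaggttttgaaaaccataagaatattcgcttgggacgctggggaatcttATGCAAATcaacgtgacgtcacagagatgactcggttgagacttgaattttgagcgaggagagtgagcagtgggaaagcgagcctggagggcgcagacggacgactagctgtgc
POLDIP3: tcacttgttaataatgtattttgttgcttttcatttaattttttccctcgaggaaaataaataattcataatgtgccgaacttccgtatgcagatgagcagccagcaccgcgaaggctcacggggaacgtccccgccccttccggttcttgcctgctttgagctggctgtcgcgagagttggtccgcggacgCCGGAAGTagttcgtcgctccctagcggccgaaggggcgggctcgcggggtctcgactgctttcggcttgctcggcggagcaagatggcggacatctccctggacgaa
WDR74: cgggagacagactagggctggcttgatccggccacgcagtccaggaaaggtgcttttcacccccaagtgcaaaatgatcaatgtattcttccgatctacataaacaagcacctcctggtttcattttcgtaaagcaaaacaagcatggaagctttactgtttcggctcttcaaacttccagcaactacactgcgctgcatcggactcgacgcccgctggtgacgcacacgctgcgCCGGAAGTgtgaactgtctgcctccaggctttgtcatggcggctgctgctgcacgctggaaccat

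The octamer, searched as ATTTGCAT on both strands, was found in the SIRT4 promoter and in 1.77% of all 35116 promoters of the table. It was not found in the POLDIP3 or WDR74 sequence. The SPH core ACTACAA, held by 2.77% of promoters, and TATAAA, held by 11.5%, were not found in any of the 3 sequences. CCGGAAGT was chosen after the sequences were read, and 4.14% of all promoters hold it on either strand. A match describes the letters only.

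Other snRNA genes, such as RNU1-1, RNU4ATAC, RNU6ATAC and RNU7-1, could not be placed in hg19 from the tables at hand and were not analysed here.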

How the data were processed

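The submitters' processing notes name Bowtie, MACS2 2.0 and the hg19 build, with no settings, and do not say whether the inputs served as controls. Libraries were amplified with 18 PCR cycles, per the labels' protocols. Each of the 6 deposited lists belongs to 1 library and gives a fold enrichment (a ratio to local background), −log10 p and −log10 q for each peak. A deposited score per peak repeats −log10 q on another scale and was left aside. The other deposited columns are peak positions, written here from 1.

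The 10 positions came from the rule, and the genes and lists were chosen with earlier results of these data known. A peak belonged to a gene within 3 kb, and peaks overlapping by at least 1 bp were matched, with the strongest by −log10 q taken. The fragments over a summit were recovered as the whole number that gave both the fold, as (pileup + 1)/(background + 1), and the Poisson −log10 p, within 0.001 for 100% of peaks. Heights divide it by the lowest background of its list, which was 1.24, 0.521 and 1.17 for CDK9 and 1.10, 1.16 and 1.22 for DDX21 with A771726 plus nucleotides, with A771726 and in DMSO. Shares carry Clopper-Pearson intervals at 95%, which treat peaks as independent draws. The rule fixed the genes, and some peaks share a locus, so these intervals only describe the counts. Heights carry Poisson intervals and ratios the interval of a ratio of counts, at 95% and for counting error only. PCR duplicates are not independent molecules. All 10 genes were named. No test between treatments was run, since each group has 1 library. Overlap and recovery were tested on simulated data. Python 3.11.15, SciPy 1.17.1 and pandas 2.3.3 were used.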

Additional observations from a re-analysis of the deposited data

How the results depend on the processing

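Recomputing the values under 141 alternatives (117 planned) left 129 close to the reported value, that is inside its interval or spread or, for counts, within 1.5 times it. Another 12 moved and 0 reversed. The 24 added after seeing the data, without RNU2-2P or within 1 kb, did not move. With −log10 q of at least 5, CDK9 with A771726 had 3 peaks, near 3 genes by the 3 kb window against 9 without that limit, and DMSO peaks found with A771726 were 30.0% and those with nucleotides 27.3%. With lists of equal length, DDX21 with nucleotides kept 3 peaks at 2 genes and DDX21 in DMSO 7 peaks, and the shares of DDX21 peaks with an A771726 peak were 100% of those with nucleotides and 85.7% of those in DMSO. Undivided pileups gave median CDK9 ratios of 0.317 for A771726 over DMSO and 3.03 for nucleotides over A771726, against 0.714 and 1.27 when divided by the lowest backgrounds, which were 0.521 with A771726 and 1.17 in DMSO. Ranked by fold enrichment, 8.68% of the CDK9 list with nucleotides stood above the median member, against 3.55% by −log10 q. The undivided values differ by the lowest backgrounds alone and the shorter lists hold fewer peaks; for the ranking the cause was not tested. No paired analysis was possible because each group has 1 library. Library depth is unknown; CDK9 summits at the genes held 11 to 69 fragments with A771726, which sets the width of their counting intervals.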
